A study of Mus musculus with 3 samples.

Results

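The genes described here are 54 genes that mouse cells use to copy and divide their DNA: 27 act in S phase, when the genome is replicated, and 27 in G2 or M phase, when chromosomes are condensed and segregated. They were chosen by symbol from a list of cell cycle genes, and all 54 were found among the 32285 genes of the deposited tables. Their levels, and the share of cells that carried their RNA, were followed in 6 blood lineages of the bone marrow (B, erythroid, monocyte, neutrophil, basophil and progenitor cells). The marrow was taken from the femur and tibia of mice of the C57BL/6J strain, was enriched on a Ficoll density gradient and was profiled by droplet sequencing of single-cell 3′ RNA ends. There were 3 groups with 1 library each. Sham mice served as the surgical control, MI mice had a myocardial infarction, and MI-E mice had an infarction and received an agent that the label gives as EMPA. Ligation of the left anterior descending coronary artery through a thoracotomy under isoflurane is the protocol attached to the labels of all 3 groups, Sham included. No transgene or engineered allele is named. The number of animals in each library, their age, the dose of the agent and the time after surgery are not given in the sources used here.

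With 1 library a group there is no replicate, so no test between groups was possible and none is given. Intervals are exact 95% intervals (Clopper-Pearson for shares, Poisson for levels, conditional binomial for ratios of levels) and cover counting error only. Ratios of shares have a wide interval, formed by dividing opposite 95% bounds of both shares. It is wider than a 95% interval of the ratio would be. Intervals of levels treat UMIs as independent and leave out the spread between cells. They are therefore too narrow where the UMIs lie in few cells. A difference between groups cannot be told apart from a difference between animals or between library preparations. "Higher" and "lower" below compare libraries, not conditions.

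A dividing cell uses these genes in a fixed order. Transcription factors of the E2F family switch on the S phase genes as a cell leaves G1: subunits of the replicative helicase (Mcm2 to Mcm7, Cdc45, Gins2), the sliding clamp Pcna and its partner Pclaf, and enzymes that supply nucleotides (Rrm1, Rrm2, Tyms, Dut). G2 and M phase genes follow, among them cyclin B and Cdk1, the kinetochore proteins, the spindle motors and the checkpoint kinases. Many of these are repressed in resting cells by the DREAM complex, which binds an element called CHR, and are activated by B-Myb and Foxm1 together with NF-Y at CCAAT boxes. In marrow, blood cells are made by dividing precursors, and mature naive B cells and mature neutrophils have left the cycle.

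Many promoters of the members carried these elements, at the rates given here. Whether the elements relate to the differences between libraries described further on was not tested. RefSeq promoter windows of build GRCm38.p6 (300 bases, most of it before the start of the gene) matched 47 of the 54 members. The letters TTTGAA (the CHR), searched on both strands, lay in 17 of 24 windows of G2/M members (70.8%), in 4 of 23 of S members (17.4%) and in 18.1% of all 27025 windows. CCAAT lay in 79.2% of the G2/M windows, 65.2% of the S windows and 37.9% of all windows. An E2F site, searched as TTTGGCGC, TTTCGCGC or TTTCCCGC, lay in 10 of 23 S windows (43.5%), in 1 of 24 G2/M windows (4.17%, Cdk1) and in 1.91% of all windows. None of these words contains another. The 100 bases before the RefSeq start are printed for 4 G2/M members and 3 S members, 5′ to 3′ on the strand of the gene, with every CHR, CCAAT and E2F match in capitals. Starts differ between annotations. By the GENCODE M21 gene positions, part of the stretches of Cdc20, Ube2c, Cdk1 and Hells lies after the start. That part includes the CHR of Ube2c and the E2F match of Hells. A match is a description of letters, not evidence of binding.
Cdc20 (chr4:118437344-118437443, minus strand): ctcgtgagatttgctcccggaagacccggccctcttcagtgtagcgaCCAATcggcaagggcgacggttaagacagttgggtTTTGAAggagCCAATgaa
Top2a (chr11:99024190-99024289, minus strand): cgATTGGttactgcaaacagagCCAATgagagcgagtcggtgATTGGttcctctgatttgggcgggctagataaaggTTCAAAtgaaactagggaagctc
Ube2c (chr2:164769829-164769928, plus strand): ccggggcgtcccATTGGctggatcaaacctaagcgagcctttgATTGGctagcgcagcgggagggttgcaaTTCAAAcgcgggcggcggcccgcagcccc
Cdk1 (chr10:69352913-69353012, minus strand): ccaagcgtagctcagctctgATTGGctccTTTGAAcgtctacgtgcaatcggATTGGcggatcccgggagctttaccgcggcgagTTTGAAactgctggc
Dtl (chr1:191575545-191575644, minus strand): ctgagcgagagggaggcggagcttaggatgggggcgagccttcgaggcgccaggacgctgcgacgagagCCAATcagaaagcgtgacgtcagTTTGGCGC
Mcm6 (chr1:128359706-128359805, minus strand): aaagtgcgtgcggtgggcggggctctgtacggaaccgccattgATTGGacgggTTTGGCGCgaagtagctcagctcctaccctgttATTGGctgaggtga
Hells (chr19:38930890-38930989, plus strand): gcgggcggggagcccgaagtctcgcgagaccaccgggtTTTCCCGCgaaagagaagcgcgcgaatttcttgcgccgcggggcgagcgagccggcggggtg
The first 4 genes belong to mitosis: Cdc20 activates the anaphase-promoting complex, Ube2c is its ubiquitin-conjugating enzyme, Top2a untangles sister chromatids and Cdk1 is the mitotic kinase. Each of these stretches has at least 1 CHR and at least 1 CCAAT box. The other 3 belong to S phase (Dtl directs destruction of the licensing factor Cdt1, Mcm6 is a helicase subunit, Hells remodels chromatin) and each has an E2F match and no CHR in these bases. The printed genes are not typical of their phase. Most G2/M members had no CHR in these 100 bases, and most S members had no E2F match there.

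The tables held 25721 (Sham), 23810 (MI) and 22857 (MI-E) barcodes, of which 21748 (Sham), 20748 (MI) and 20097 (MI-E) remained after filters and removal of 13.2, 11.5 and 10.7% as doublets. Median depth of the kept cells was 2134 (Sham), 3120 (MI) and 2578 (MI-E) UMIs (unique molecular identifiers, 1 per captured RNA molecule). Pairs of libraries shared 156 to 176 barcodes (at most 0.770% of the smaller library). Cells were grouped into 33 clusters without using the members or other cell cycle and histone genes, and clusters were named by marker genes. Several clusters stood apart by library. Among monocyte-like cells, cluster 5 (leading genes Ifi211 and Cx3cr1) held 3343 Sham, 30 MI and 90 MI-E cells, and cluster 1 (Saa3, Vcan, Fn1) held 12, 3429 and 2673. Among mature neutrophil-like cells, cluster 14 held 1100, 28 and 82 cells and cluster 4 held 68, 2341 and 1844. Each of the B, erythroid, monocyte, neutrophil, basophil and progenitor classes had none of its markers at 0 in any library.

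A cell was counted as dividing when, after it was thinned at random to 1000 UMIs, at least 3 different members other than Hmgb2 held a UMI. Hmgb2, a chromatin protein, was left out of this count because resting blood cells also carry it. The measure is one of RNA, not of divisions observed. Mature naive B-like cells gave the background: 8.02% (Sham), 10.02% (MI) and 10.9% (MI-E) of them met the rule, at median depths of 1341 (Sham), 1017 (MI) and 1043 (MI-E) UMIs. Mature neutrophil-like cells met it in 4.12% (Sham), 1.44% (MI) and 3.02% (MI-E). Over all cells the share was 26.05% (5227 of 20069 cells, 95% interval 25.4% to 26.7%) in Sham, 25.6% (4704 of 18403 cells, 95% interval 24.9% to 26.2%) in MI and 27.8% (4758 of 17106 cells, 95% interval 27.1% to 28.5%) in MI-E. Without thinning it was 38.4% (Sham), 38.7% (MI) and 39.3% (MI-E). Whether the share of MI-E lay above that of Sham depended on the settings: the log2 ratio was 0.0948 here and changed sign with thinning to 500 or 2000 UMIs, with 2 members required, and with cells of at least 800 genes and 1500 UMIs, where it lay between -0.141 and -0.00352. The rule left out 1679 (Sham), 2345 (MI) and 2991 (MI-E) cells with under 1000 UMIs. In the 3 libraries 2434 (Sham), 1660 (MI) and 1756 (MI-E) cells held exactly 2 such members, just below the rule, and 948 (Sham), 780 (MI) and 791 (MI-E) held exactly 3.

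The overall share was nearly level, while the lineages behind it were not. B-like cells made up 47.3% (Sham), 12.8% (MI) and 19.3% (MI-E) of the cells with 1000 UMIs or more, and neutrophil-like cells 10.9% (Sham), 33.1% (MI) and 27.2% (MI-E). Of the dividing cells, B-like cells were 38.01% (Sham), 5.89% (MI) and 9.71% (MI-E). Neutrophil-like cells were 6.94% (Sham), 23.2% (MI) and 18.7% (MI-E) of the dividing cells, monocyte-like cells 16.1% (Sham), 24.5% (MI) and 28.4% (MI-E), and progenitor-like cells 13.5% (Sham), 24.1% (MI) and 23.98% (MI-E). Erythroid-like cells were 15.00% (Sham), 12.3% (MI) and 9.65% (MI-E) and basophil-like cells 2.93% (Sham), 1.93% (MI) and 1.43% (MI-E). B-like cells were thus the largest class of dividing cells in Sham, and monocyte-like cells the largest in MI and MI-E. When each library was given the lineage mix of Sham, the share was 21.8% for MI and 24.6% for MI-E, where Sham itself had 26.05%.

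**Figure D1:**
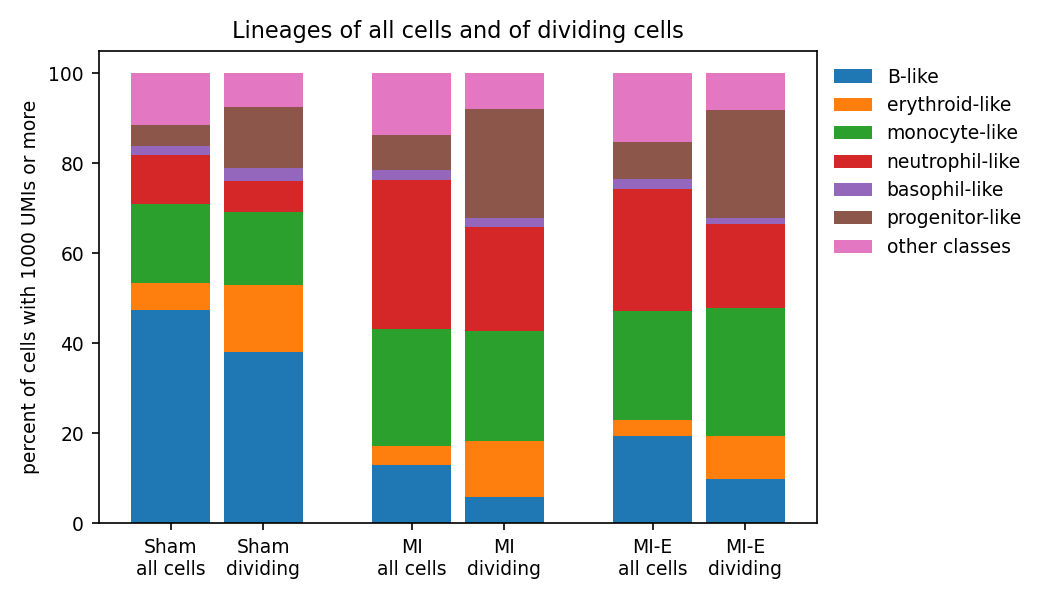
Stacked bars of the lineage makeup, in percent, of all cells with at least 1000 UMIs and of the cells counted as dividing, for the Sham, MI and MI-E libraries. B-like cells make up 38.01% of the dividing cells in Sham and 5.89% in MI, mature naive B-like cells that met the rule included.

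**Figure D2:**
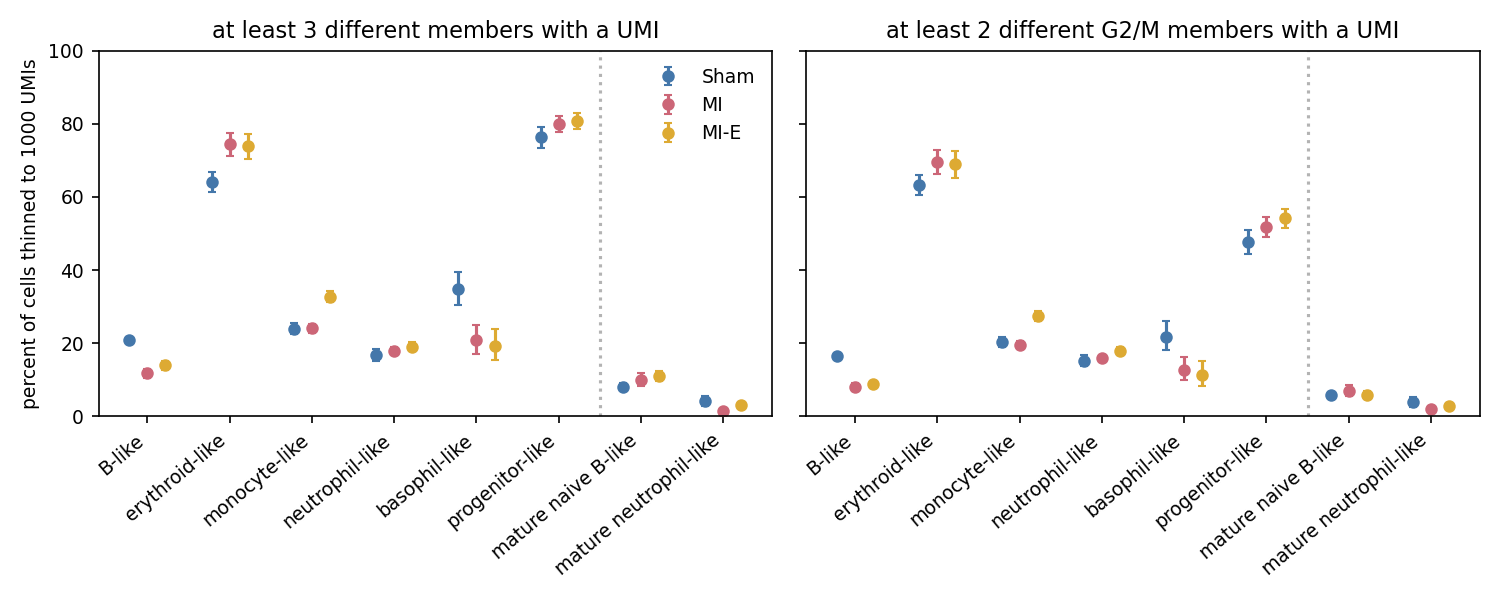
Percent of cells that carried at least 3 members (left) or at least 2 G2/M members (right) at 1000 UMIs, by lineage and library, with exact 95% intervals; mature naive B-like and mature neutrophil-like cells show the background. B-like and basophil-like cells are highest in Sham, monocyte-like cells in MI-E, and erythroid-like cells are lowest in Sham.

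B-like cells had a lower share of dividing cells in both infarction libraries. The share was 20.9% (1987 of 9494 cells, 95% interval 20.1% to 21.8%) in Sham, 11.7% (277 of 2364 cells, 95% interval 10.4% to 13.1%) in MI and 13.97% (462 of 3308 cells, 95% interval 12.8% to 15.2%) in MI-E. The log2 ratio to Sham was -0.84 (wide interval -1.06 to -0.62) in MI and -0.58 (wide interval -0.77 to -0.40) in MI-E. That of MI-E to MI was 0.25 (wide interval -0.03 to 0.54). This interval includes 0, which at its width does not show that the shares are level. Since mature naive B-like cells are a background class and made up 32.6%, 58.9% and 64.3% of B-like cells in Sham, MI and MI-E, the share was also taken without them, as an alternative added after seeing the data. It was then 27.5% (Sham), 13.6% (MI) and 18.4% (MI-E). With at least 5 members required in place of 3, the share over all B-like cells was 13.97% (Sham), 2.88% (MI) and 4.35% (MI-E). Of the mature naive B-like cells, 0.715% (Sham), 1.30% (MI) and 1.22% (MI-E) carried 5 or more. Unthinned shares of B-like cells were 27.9% (Sham), 15.2% (MI) and 17.3% (MI-E), and 1131 (Sham), 1563 (MI) and 2027 (MI-E) cells were too shallow to be counted. The median depth of B-like cells was 1399 (Sham), 1063 (MI) and 1080 (MI-E) UMIs.

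**Figure D3:**
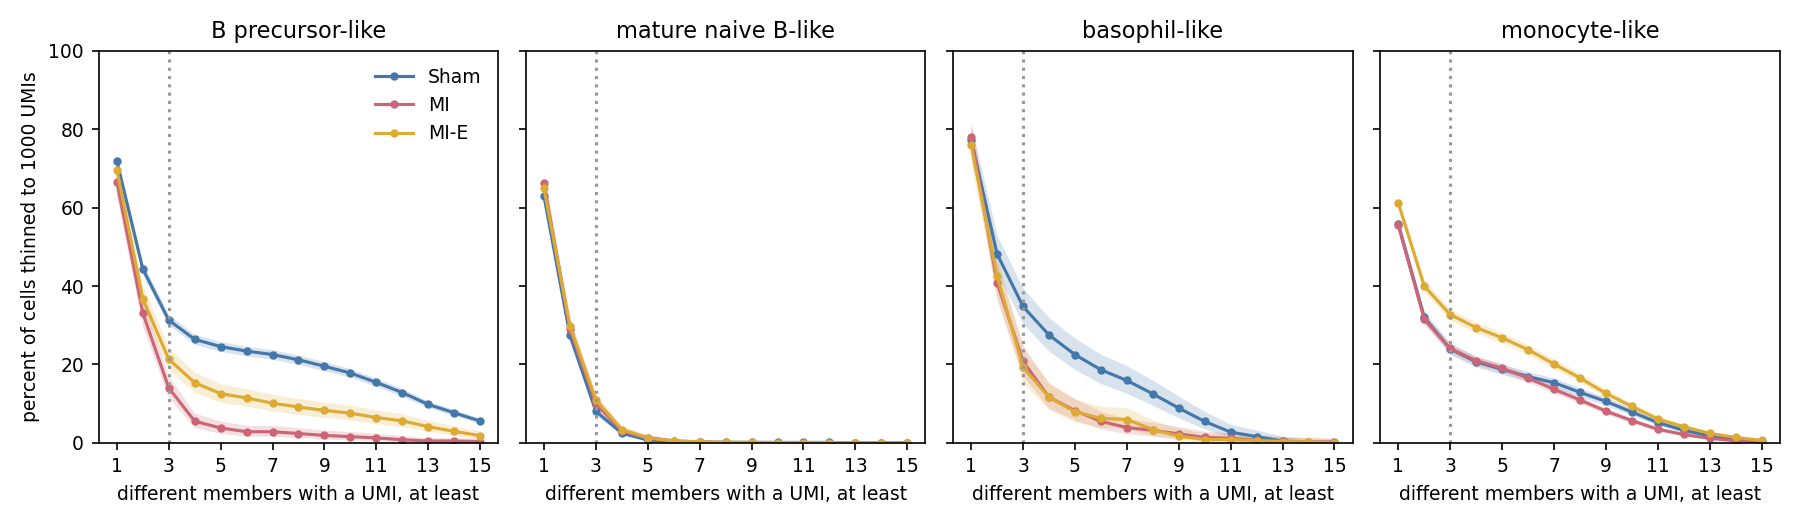
Percent of cells that carried at least k different members at 1000 UMIs, for k from 1 to 15, in B precursor-like, mature naive B-like, basophil-like and monocyte-like cells of each library; the dotted line marks the rule of 3 members and shading gives exact 95% intervals. At k of 8, 12.5% of Sham basophil-like cells remained, against 3.20% in MI and 3.40% in MI-E.

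Summed over the 27 S members, the level in B-like cells was 3252 CPM in Sham against 817 in MI and 1156 in MI-E (CPM, UMI counts scaled to a common total per lineage). This was lower in MI than in Sham 3.98-fold (95% interval 3.86 to 4.11) and lower in MI-E 2.81-fold (95% interval 2.75 to 2.88). The 27 G2/M members summed to 5315 CPM in Sham against 1224 in MI and 1685 in MI-E, lower in MI 4.34-fold (95% interval 4.23 to 4.46) and in MI-E 3.15-fold (95% interval 3.10 to 3.22). Both sums were higher in MI-E than in MI, by 1.42-fold (95% interval 1.36 to 1.47) for S and 1.38-fold (95% interval 1.33 to 1.42) for G2/M. Fewer dividing cells and less RNA per dividing cell cannot be told apart in such sums. In Sham the S transcripts lay in few cells: the 10% of B-like cells with the most held 84.3% (Sham), 43.9% (MI) and 60.5% (MI-E) of the S UMIs.

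**Figure D4:**
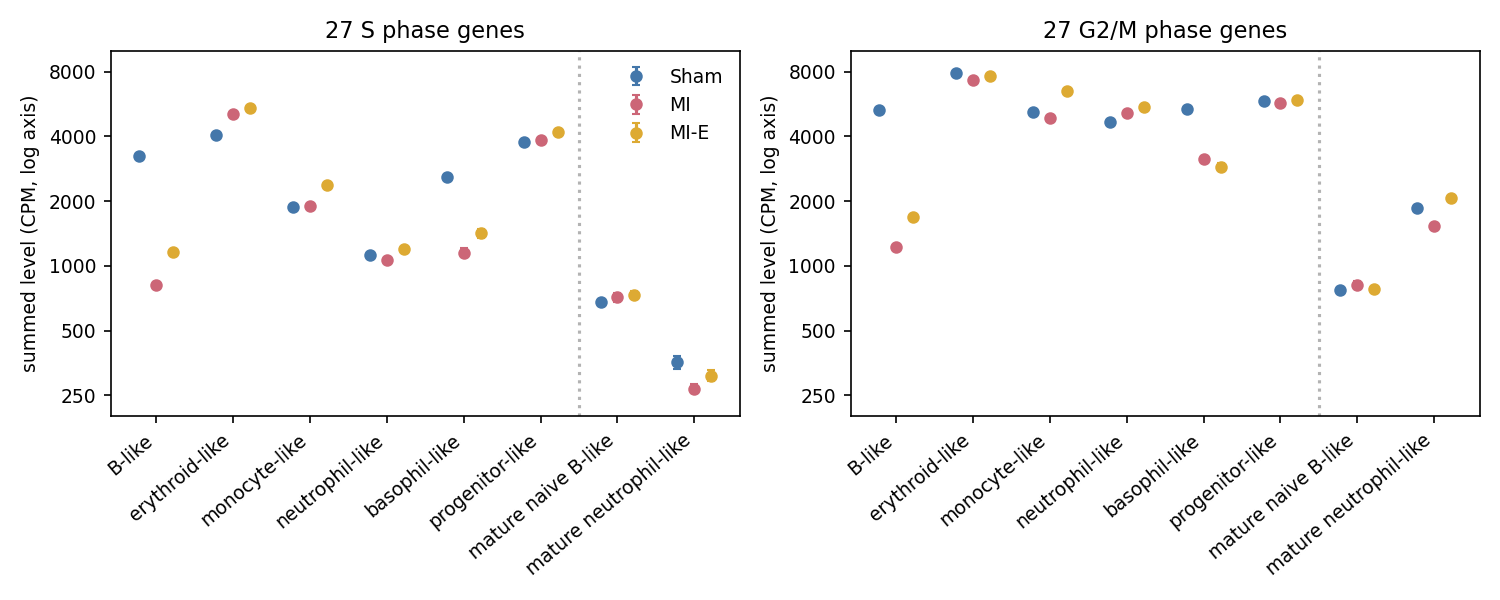
Summed level of the 27 S members and of the 27 G2/M members (Hmgb2 included) in CPM (log axis) by lineage and library, with Poisson 95% intervals. The B-like S sum is 3252 CPM in Sham and 817 in MI, while the progenitor-like sum lies between 3779 and 4196 in all 3 libraries.

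The lower level in B-like cells of MI ran through the members of both phases. All 27 S members and all 27 G2/M members were lower than in Sham, and 25 of 27 and 25 of 27 were lower by 2-fold or more, where 4.6% of all measured genes of B-like cells were (a gene counts as measured from a mean CPM of 10 in the lineage). The median log2 ratio was -2.04 for S members and -2.28 for G2/M members, beside 0.09 for all measured genes. In MI-E, 24 S and 24 G2/M members were lower than in Sham by 2-fold or more, against 4.23% of all measured genes, with medians of -1.49 and -1.59 beside 0.14. The 2 infarction libraries share the Sham library as control. Set against MI, 26 S and 26 G2/M members were higher in MI-E, 3 and 4 of them by 2-fold or more (background 0.597%).

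By role, the replicative helicase genes of B-like cells had a median log2 ratio of MI to Sham of -1.65, and 8 of 8 were 2-fold or more lower. Clamp, fork and lagging strand genes had -1.70 (5 of 7), nucleotide supply genes -2.04 (5 of 5), licensing genes -2.22 (3 of 3), and the chromatin and transcription genes -2.26 (4 of 4). Among the mitotic roles, the spindle genes had -2.46 (6 of 6), the checkpoint genes -2.39 (5 of 5) and the cyclin and kinase genes -2.32 (6 of 6). The centromere and kinetochore genes had -2.03 (5 of 6), and the chromosome structure genes -2.35 (3 of 4). The 4 members short of 2-fold were Rfc2, a subunit of the clamp loader, Rpa2, Smc4, a condensin subunit, and Cenpa, the centromeric histone. Rfc2 measured 97.3 CPM in Sham against 77.6 in MI and 81.5 in MI-E, and Cenpa 186 CPM in Sham against 94.9 in MI and 87.99 in MI-E.

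Pclaf, which binds the sliding clamp at replication forks, was the member farthest below Sham in MI. With positions in mm10, Pclaf (ENSMUSG00000040204, chr9:65890237-65903266) measured 486 CPM in Sham against 27.2 in MI and 87.1 in MI-E in B-like cells. It was lower in MI by 17.9-fold (95% interval 15.04 to 21.4) and in MI-E by 5.58-fold (95% interval 5.14 to 6.07), and higher in MI-E than in MI by 3.20-fold (95% interval 2.65 to 3.90). The clamp itself, Pcna (ENSMUSG00000027342, chr2:132249162-132253314), measured 370.2 CPM in Sham against 114 in MI and 146 in MI-E, lower in MI by 3.25-fold (95% interval 2.98 to 3.56). The sequence of libraries was the same for both genes, with Sham highest and MI lowest. Uhrf1, which carries DNA methylation through replication, measured 177 CPM in Sham against 22.8 in MI and 47.2 in MI-E, lower in MI by 7.75-fold and in MI-E by 3.74-fold. Of the mitotic members, Top2a (ENSMUSG00000020914, chr11:98992943-99024189) measured 443 CPM in Sham against 67.3 in MI and 126 in MI-E, lower in MI by 6.58-fold (95% interval 5.89 to 7.37). Hmgb2 (ENSMUSG00000054717, chr8:57511907-57515999) measured 2399 CPM in Sham against 517 in MI and 680.2 in MI-E, lower in MI by 4.64-fold. Birc5, the survivin subunit of the chromosomal passenger complex, stood at 177 CPM in Sham against 33.7 in MI and 36.4 in MI-E. Unlike Pclaf, it was nearly the same in both infarction libraries, with a ratio of MI-E to MI of 1.08-fold (95% interval 0.884 to 1.33).

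Among the B stages, the difference was widest in B precursor-like cells, the stage that expands in the marrow. Their dividing share was 31.3% (1449 of 4628 cells, 95% interval 29.97% to 32.7%) in Sham, 14.04% (89 of 634 cells, 95% interval 11.4% to 16.99%) in MI and 21.3% (175 of 821 cells, 95% interval 18.6% to 24.3%) in MI-E. Immature B-like cells gave 16.97% (280 of 1650 cells, 95% interval 15.2% to 18.9%), 12.9% (65 of 502 cells, 95% interval 10.1% to 16.2%) and 13.9% (73 of 527 cells, 95% interval 11.02% to 17.1%), and the intervals of MI and MI-E overlap those of mature naive B-like cells. Of the precursors, cluster 16 (Myl4, Nrgn, and the members Pclaf and Uhrf1 among its leading genes) held 1041 cells in Sham against 20 in MI and 84 in MI-E, or 9.80%, 0.509% and 1.57% of the B-like cells. Its own dividing share was 87.7% (906 of 1033 cells, 95% interval 85.5% to 89.6%) in Sham, 57.9% (11 of 19 cells, 95% interval 33.5% to 79.7%) in MI and 84.5% (71 of 84 cells, 95% interval 74.99% to 91.5%) in MI-E. Cluster 21 (Vpreb1, Igll1, Dntt), which carries the surrogate light chain genes of early precursors, had 38.6% (249 of 645 cells, 95% interval 34.8% to 42.5%), 20.2% (17 of 84 cells, 95% interval 12.3% to 30.4%) and 23.1% (31 of 134 cells, 95% interval 16.3% to 31.2%). Cluster 2 (Rag1, the recombinase gene used while cells rest between divisions) had 9.97% (Sham), 11.5% (MI) and 12.1% (MI-E), close to the mature naive background in all 3 libraries.

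In B precursor-like cells the S sum was 4585 CPM in Sham against 925 in MI and 2166 in MI-E and the G2/M sum 7809 CPM in Sham against 1774 in MI and 3849.9 in MI-E. The S sum was lower in MI than in Sham 4.96-fold (95% interval 4.68 to 5.26) and higher in MI-E than in MI 2.34-fold (95% interval 2.20 to 2.50). The G2/M sum was lower in MI 4.40-fold (95% interval 4.22 to 4.59) and higher in MI-E than in MI 2.17-fold (95% interval 2.07 to 2.28). Against Sham, 26 S and 26 G2/M members were 2-fold or more lower in MI (background 7.13%), and 13 and 6 in MI-E (background 2.97%). Between the infarction libraries, all 27 S and all 27 G2/M members were higher in MI-E, 17 and 21 of them by 2-fold or more, where 4.01% of all measured genes were. Median log2 ratios were 1.16 and 1.36, beside 0.05 for all measured genes. MI-E thus stood between MI and Sham for both sums in these cells.

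Pclaf in B precursor-like cells measured 738 CPM in Sham against 41.1 in MI and 255 in MI-E, and MI-E exceeded MI by 6.21-fold (95% interval 4.66 to 8.43). For Top2a the values were 657 CPM in Sham against 71.97 in MI and 352 in MI-E, and MI-E exceeded MI by 4.89-fold (95% interval 3.93 to 6.16). Mki67, the coat of mitotic chromosomes known as Ki-67, stood at 546 CPM in Sham against 95.7 in MI and 273 in MI-E, and Cdk1 at 126 CPM in Sham against 11.9 in MI and 51.8 in MI-E. These 4 genes share 1 order, MI lowest and Sham highest. Rfc2 differed less, at 101 CPM in Sham against 70.4 in MI and 83.2 in MI-E. In immature B-like cells the S sum was 1914 CPM in Sham against 951 in MI and 919 in MI-E and the G2/M sum 2394 CPM in Sham against 1601 in MI and 1185 in MI-E. Of the 24 S and 24 G2/M members measured there, 11 S and 1 G2/M members were 2-fold or more lower in MI (background 2.15%), and 15 and 13 in MI-E (background 2.54%). In contrast to the precursors, 5 G2/M members of immature B-like cells were 2-fold or more lower in MI-E than in MI (background 1.75%), and 2 S members were higher (background 2.16%). Top2a there measured 212 CPM in Sham against 122 in MI and 63.5 in MI-E. Mature naive B-like cells had S sums of 676 CPM in Sham against 715 in MI and 736 in MI-E, a narrow range.

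RNA of the neutrophil genes S100a8 and S100a9 moved with these groups. In B precursor-like cells their summed level was 1653 CPM in Sham against 10860.3 in MI and 3791 in MI-E, and in all B-like cells 1789 CPM in Sham against 6889 in MI and 3212 in MI-E. They are 2 of the 14 mature neutrophil markers, a class whose 14 markers were all detected in each library. Their part in the result was not tested.

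**Figure D5:**
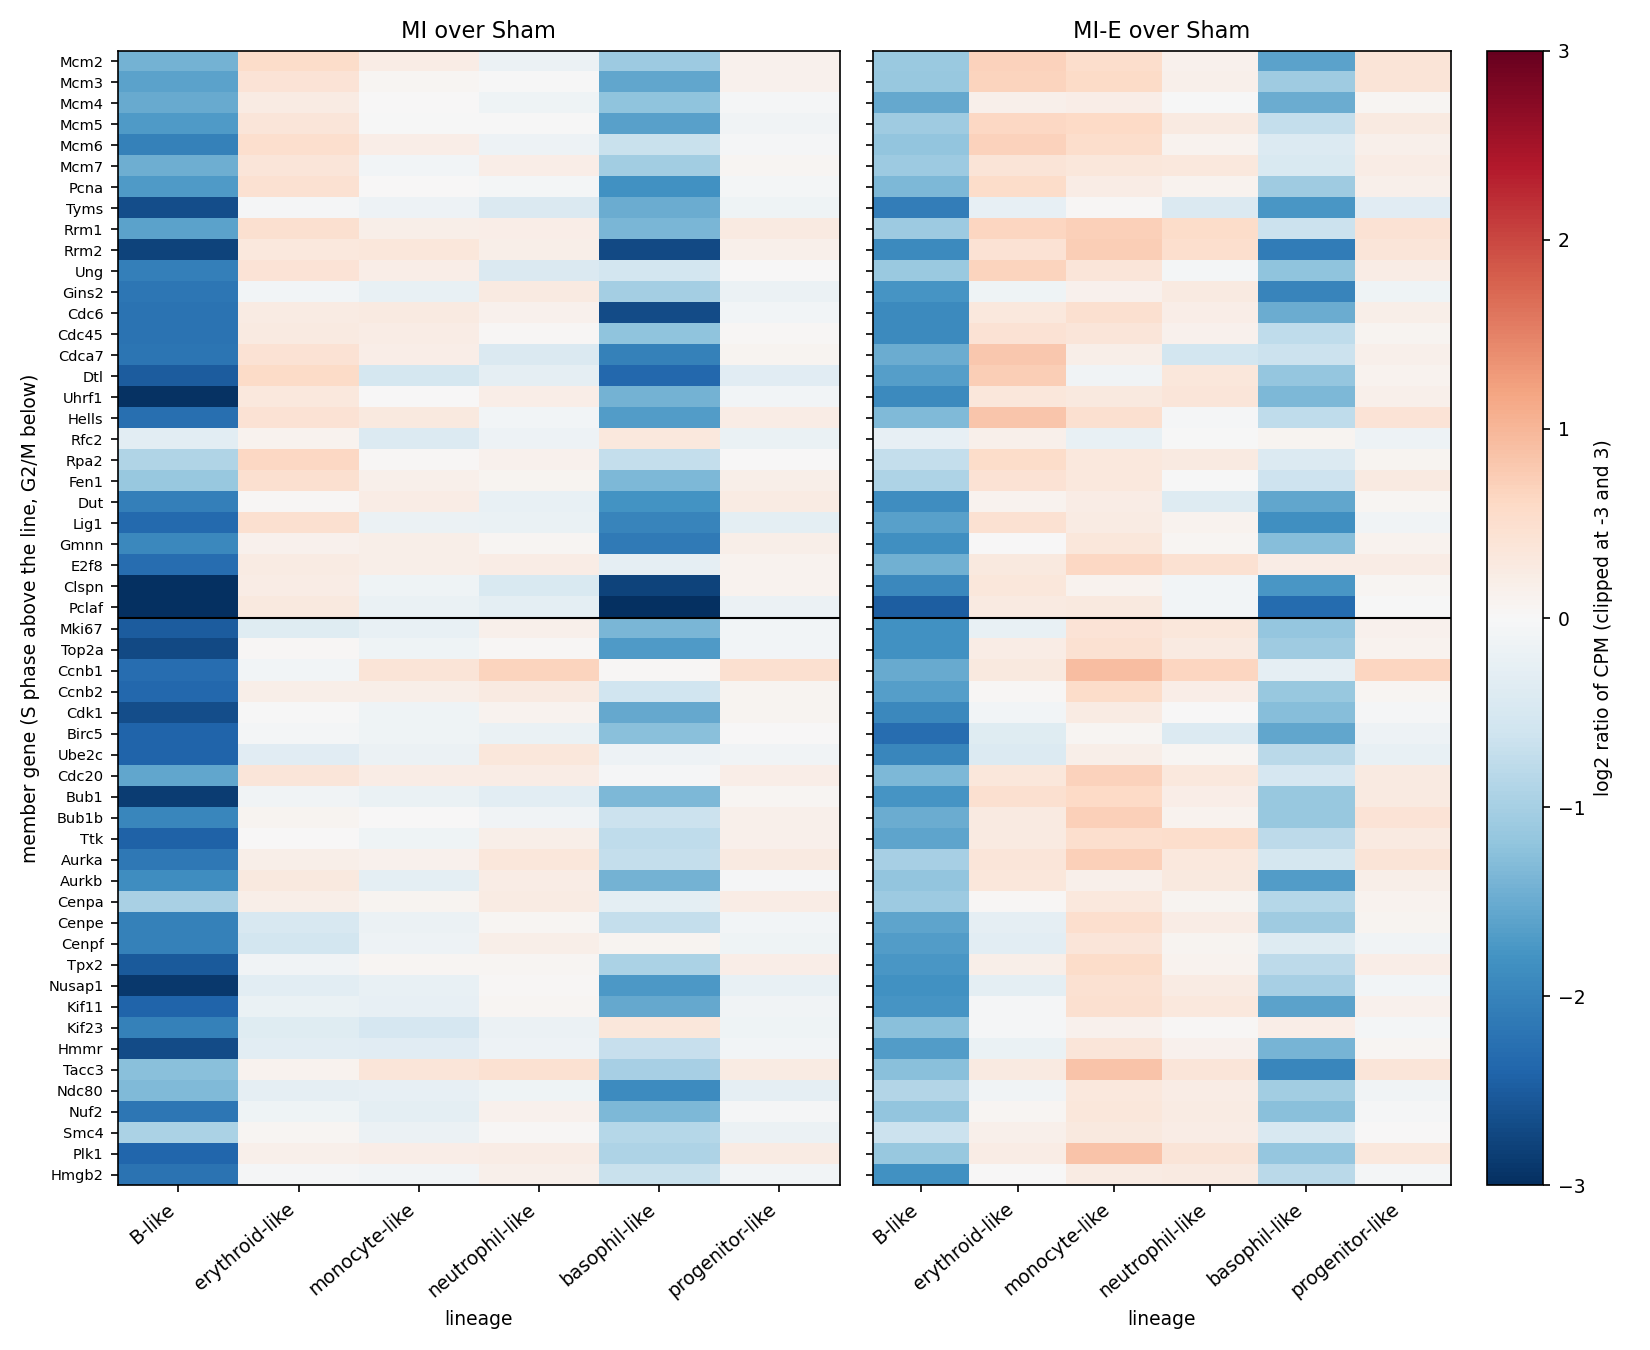
Heat map of the log2 ratio of CPM, MI to Sham and MI-E to Sham, for each of the 54 members (rows, by phase) in 6 lineages (columns), clipped at 3 in either direction. In the B columns every member is below 0 in MI, most members are below 0 in the basophil columns, and no member of the monocyte, neutrophil and progenitor columns is past 1 in either direction.

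Basophil-like cells, a rare class with 457 Sham, 467 MI and 390 MI-E cells, were the other lineage with lower levels of the members in both infarction libraries. The dividing share was 34.8% (153 of 440 cells, 95% interval 30.3% to 39.4%) in Sham, 20.8% (91 of 438 cells, 95% interval 17.1% to 24.9%) in MI and 19.3% (68 of 353 cells, 95% interval 15.3% to 23.8%) in MI-E. The log2 ratios to Sham were -0.74 (wide interval -1.21 to -0.29) and -0.85 (wide interval -1.37 to -0.35). With at least 5 members the shares were 22.5% (Sham), 8.22% (MI) and 7.93% (MI-E). Unthinned, they were 51.9% (Sham), 46.9% (MI) and 48.5% (MI-E), so the difference was much smaller without a fixed depth, and the median depths were 2319 (Sham), 1985 (MI) and 1946 (MI-E) UMIs. The summed S level was 2597 CPM in Sham against 1154 in MI and 1415 in MI-E, lower in MI by 2.25-fold (95% interval 2.12 to 2.39) and in MI-E by 1.83-fold (95% interval 1.73 to 1.95). The summed G2/M level was 5380.3 CPM in Sham against 3142 in MI and 2894 in MI-E, lower in MI by 1.71-fold (95% interval 1.65 to 1.78) and in MI-E by 1.86-fold (95% interval 1.78 to 1.94). S100a8 and S100a9 summed to 12145 CPM in Sham against 9305 in MI and 13106 in MI-E in these cells, and their part in the result was not tested. Outside the 6 lineages, dendritic-like cells also had lower dividing shares, at 34.2% (Sham), 24.1% (MI) and 26.1% (MI-E). Plasmacytoid dendritic-like cells had 9.09% (64 of 704 cells, Sham), 4.12% (15 of 364 cells, MI) and 5.20% (22 of 423 cells, MI-E). Macrophage-like cells were nearly level, at 18.4% (Sham), 18.2% (MI) and 18.0% (MI-E). NK-like cells had 8.16% (12 of 147 cells, 95% interval 4.29% to 13.8%) in Sham, 11.5% (16 of 139 cells, 95% interval 6.72% to 18.0%) in MI and 7.57% (19 of 251 cells, 95% interval 4.62% to 11.6%) in MI-E. These intervals overlap. The NK-like and plasmacytoid dendritic-like shares lay near or below the background of mature naive B-like cells.

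In basophil-like cells 25 S and 27 G2/M members reached 10 CPM (Gins2 and Ung did not), and 21 and 10 of these were 2-fold or more lower in MI than in Sham (background 4.97%), and 14 and 15 in MI-E (background 3.75%). Between MI-E and MI, 4 S members were 2-fold or more higher (background 2.87%). Median log2 ratios of MI to Sham were -1.49 for S and -0.85 for G2/M members, beside 0.07 for all measured genes. The corresponding values in MI-E were -1.15 and -1.06, beside 0.14. Licensing genes (Cdc6, Dtl and Gmnn) had a median of -2.36 in MI, and the checkpoint and APC/C genes one of -0.65, with 1 of 5 lower by 2-fold or more.

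Pclaf in basophil-like cells measured 219.8 CPM in Sham against 27.4 in MI and 44.2 in MI-E, lower in MI by 8.01-fold (95% interval 5.60 to 11.8) and in MI-E by 4.97-fold. Rrm2, the regulated subunit of ribonucleotide reductase, measured 103 CPM in Sham against 15.8 in MI and 24.02 in MI-E, lower in MI by 6.53-fold and in MI-E by 4.30-fold. Top2a stood at 399 CPM in Sham against 122 in MI and 192 in MI-E, lower in MI by 3.27-fold (95% interval 2.73 to 3.93). Sham was highest for these 3 genes and MI lowest. Cdca7, which works with Hells on chromatin, showed that order too, at 40.8 CPM in Sham against 9.98 in MI and 25.9 in MI-E. Not every member had this order. Ube2c measured 209 CPM in Sham against 186 in MI and 118 in MI-E and Cenpa 171 CPM in Sham against 139.7 in MI and 94.2 in MI-E, lowest in MI-E. Ccnb1, which encodes cyclin B1, was at 32.6 CPM in Sham against 33.3 in MI and 26.9 in MI-E, and Cenpf, a kinetochore protein, at 82.2 CPM in Sham against 86.5 in MI and 62.5 in MI-E.

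Rfc2 and E2f8 were 2 S members of basophil-like cells that did not follow the others. Rfc2 measured 247 CPM in Sham against 306 in MI and 261 in MI-E, higher in MI than in Sham by 1.24-fold (95% interval 1.08 to 1.43). E2f8, a repressor of the E2F family, measured 183 CPM in Sham against 151 in MI and 213 in MI-E, and MI-E exceeded MI by 1.41-fold. Both genes were also found in basophil-like cells that carried no other member at 1000 UMIs: Rfc2 in 30 of 130 in Sham (23.1%), 59 of 155 in MI (38.1%) and 21 of 106 in MI-E (19.8%), and E2f8 in 17 of 117 in Sham (14.5%), 17 of 113 in MI (15.04%) and 30 of 115 in MI-E (26.1%). Of monocyte-like cells without other members, 5.64% (Sham), 5.25% (MI) and 5.53% (MI-E) carried lone Rfc2, and of progenitor-like ones 8.33% (Sham), 19.5% (MI) and 14.3% (MI-E), the latter with fewer than 100 cells a library. Lone E2f8 was found in at most 2.94% of such cells in any library of the other lineages examined. Kif23, a motor of cytokinesis, was at 54.8 CPM in Sham against 69.03 in MI and 63.4 in MI-E in basophil-like cells, and lone Kif23 was found in 3.85% (Sham), 5.88% (MI) and 9.57% (MI-E) of those without other members.

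Monocyte-like cells carried more of the members in MI-E. Their dividing share was 23.96% (841 of 3510 cells, 95% interval 22.6% to 25.4%) in Sham, 24.1% (1153 of 4791 cells, 95% interval 22.9% to 25.3%) in MI and 32.7% (1353 of 4135 cells, 95% interval 31.3% to 34.2%) in MI-E. The log2 ratio of MI to Sham had an interval that includes 0, at 0.01 (wide interval -0.15 to 0.17), while MI-E exceeded MI with 0.44 (wide interval 0.31 to 0.58). With at least 2 G2/M members the shares were 20.3% (Sham), 19.6% (MI) and 27.5% (MI-E), and with at least 2 S members 20.8% (Sham), 20.8% (MI) and 27.8% (MI-E). Unthinned shares were 46.1% (Sham), 48.6% (MI) and 55.5% (MI-E). The cells behind these shares came from different clusters. In Sham most belonged to cluster 5, of which 24.2% were dividing. In MI and MI-E, cluster 1 held few dividing cells (5.76% and 8.71% dividing) and cluster 8 (leading genes Nrg1, Racgap1 and the member Pclaf) held 1270 and 1406 cells, of which 78.6% and 89.4% were dividing. Cluster 8 had 61 Sham cells.

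Whether such dividing cells counted as monocyte-like depended on the clustering. At a lower cluster resolution, and with 4000 variable genes, they formed a cluster of 4010 and of 2727 cells that scored highest for monocyte markers but was left without a name, since its leading genes held more markers of another class. The ratios of monocyte-like cells to Sham then changed sign. At the lower resolution the log2 ratio of MI-E to Sham was -1.27, and with 4000 variable genes -1.49. The comparison of MI-E with MI kept its sign under all 14 alternatives, between 0.19 and 0.67. Combined with progenitor-like cells, a population added after seeing the data, the shares were 34.9% (Sham), 36.8% (MI) and 44.97% (MI-E).

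Summed levels in monocyte-like cells were 1877 CPM in Sham against 1904 in MI and 2384 in MI-E for S and 5205 CPM in Sham against 4876 in MI and 6506 in MI-E for G2/M members. MI-E exceeded MI by 1.25-fold (95% interval 1.24 to 1.27) for S and by 1.33-fold (95% interval 1.32 to 1.34) for G2/M. The difference was small for each gene and shared by nearly all: 26 of 27 S and 27 of 27 G2/M members were higher in MI-E than in MI, and none was higher by 2-fold or more, where 0.379% of measured genes were. Against Sham, too, no member differed by 2-fold or more in MI (background 2.17% higher and 2.95% lower) or in MI-E (2.01% and 1.69%). Median log2 ratios were 0.26 and 0.56, beside 0.10 for all measured genes. The spindle genes (Kif11, Kif23, Tpx2, Nusap1, Hmmr, Tacc3) had a median of 0.66, and the checkpoint genes 0.63. S100a8 and S100a9 summed to 1916 CPM in Sham against 23432 in MI and 12669.8 in MI-E in monocyte-like cells, and their part in the result was not tested.

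Kif11, the motor that separates spindle poles, measured 83.7 CPM in Sham against 70.00 in MI and 116 in MI-E in monocyte-like cells, and MI-E exceeded MI by 1.66-fold (95% interval 1.57 to 1.76). Bub1, a checkpoint kinase, measured 22.6 CPM in Sham against 19.7 in MI and 33.9 in MI-E, with MI-E above MI by 1.72-fold (95% interval 1.54 to 1.92). Top2a stood at 331 CPM in Sham against 305 in MI and 452 in MI-E, Pclaf at 311 CPM in Sham against 271 in MI and 379.5 in MI-E and Hmgb2 at 2682 CPM in Sham against 2526 in MI and 3170.2 in MI-E. MI was lowest and MI-E highest for these 5 genes. Pcna was nearly level, at 212 CPM in Sham against 214 in MI and 246 in MI-E. Ccnb1 had another order, at 45.3 CPM in Sham against 59.6 in MI and 85.5 in MI-E, and MI-E exceeded Sham by 1.89-fold (95% interval 1.74 to 2.06). Rrm2, at 81.2 CPM in Sham against 104 in MI and 135 in MI-E, and Tacc3, a spindle protein, at 50.3 CPM in Sham against 65.00 in MI and 91.4 in MI-E, followed the order of Ccnb1. Kif23, at 70.8 CPM in Sham against 49.7 in MI and 77.03 in MI-E, and Dtl, at 23.5 CPM in Sham against 16.4 in MI and 21.8 in MI-E, were the members farthest below Sham in MI. Rfc2, at 88.6 CPM in Sham against 66.7 in MI and 76.4 in MI-E, was farthest below Sham in MI-E.

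Over the whole lineage, erythroid-like cells carried more S phase RNA in MI and MI-E, while their mitotic RNA differed little. Without the clusters led by haemoglobin genes, the mitotic RNA was highest in Sham, with values given further below. The dividing share was 64.1% (784 of 1224 cells, 95% interval 61.3% to 66.7%) in Sham, 74.5% (579 of 777 cells, 95% interval 71.3% to 77.5%) in MI and 73.9% (459 of 621 cells, 95% interval 70.3% to 77.3%) in MI-E. The share with at least 2 S members was 46.00% (Sham), 67.4% (MI) and 63.6% (MI-E), and with at least 2 G2/M members 63.2% (Sham), 69.6% (MI) and 69.1% (MI-E). The first of these differed most. Cluster 23, led by haemoglobin genes as in late maturing red cells, had 441 Sham, 152 MI and 143 MI-E cells, or 34.5%, 18.7% and 21.7% of the lineage, and 11.5% (Sham), 4.67% (MI) and 6.38% (MI-E) of its cells were dividing. Without the haemoglobin-led clusters, an alternative added after seeing the data, the dividing share was 96.03% (Sham), 92.7% (MI) and 94.1% (MI-E), with Sham highest. With cells of at least 800 genes and 1500 UMIs the log2 ratios of the dividing share to Sham also changed sign, to -0.0590 in MI and -0.0756 in MI-E. The S share without the haemoglobin-led clusters was still lowest in Sham, at 72.4% (Sham), 84.3% (MI) and 82.3% (MI-E), and the G2/M share was 89.8% (Sham), 85.7% (MI) and 86.1% (MI-E). Within cluster 18 (Car1, Klf1), an early stage by these genes, the S share was 92.6% (Sham), 87.6% (MI) and 90.8% (MI-E).

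Erythroid-like cells had an S sum of 4072 CPM in Sham against 5103 in MI and 5424 in MI-E, higher in MI by 1.25-fold (95% interval 1.23 to 1.27) and in MI-E by 1.33-fold (95% interval 1.31 to 1.35). Their G2/M sum was 7883 CPM in Sham against 7312 in MI and 7664 in MI-E. The ratio of the S sum to the G2/M sum, which includes Hmgb2, was 0.516 in Sham against 0.698 in MI and 0.708 in MI-E. All measured genes of this lineage had median log2 ratios of 0.26 in MI and 0.42 in MI-E. The summed level of the 19 erythroid markers, haemoglobins included, was 269763 CPM in Sham against 135778 in MI and 120595 in MI-E. Beside the medians of all measured genes, S members had 0.36 and 0.44, and G2/M members -0.05 and 0.05. Relative to the other genes of the lineage, S members were at most slightly higher and G2/M members lower. With scaling by the median of ratios or by TMM, the log2 ratio of the S sum of MI-E to Sham turned to -0.000215 and -0.0109. No member differed by 2-fold or more from Sham, where 2.25% of measured genes were higher and 0.755% lower in MI, and 4.57% higher and 0.503% lower in MI-E.

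Helicase and fork genes of erythroid-like cells were the higher ones. Mcm2 measured 156 CPM in Sham against 227 in MI and 251 in MI-E, higher in MI by 1.46-fold and in MI-E by 1.61-fold. Rpa2, which coats single-stranded DNA, measured 72.7 CPM in Sham against 112 in MI and 106 in MI-E, higher in MI by 1.54-fold (95% interval 1.38 to 1.73). Pcna stood at 402 CPM in Sham against 551 in MI and 586 in MI-E and Hells at 59.04 CPM in Sham against 79.99 in MI and 105 in MI-E, with Sham lowest for all 4 genes. Dut, which keeps uracil out of DNA, was nearly level at 582 CPM in Sham against 596 in MI and 621 in MI-E. Several mitotic members were highest in Sham. Cenpf measured 286 CPM in Sham against 195 in MI and 228 in MI-E, lower in MI by 1.46-fold (95% interval 1.36 to 1.57), and Cenpe, a kinetochore motor, 140.5 CPM in Sham against 99.98 in MI and 116 in MI-E. Mki67 stood at 1103 CPM in Sham against 862 in MI and 949 in MI-E and Ube2c at 561 CPM in Sham against 444 in MI and 421 in MI-E, both highest in Sham. Of the 6 centromere and kinetochore members 5 were lower in MI than in Sham, while of 26 other kinetochore and checkpoint genes 16 were higher and 10 lower (median log2 ratio 0.11). Of the 7 clamp and fork members 7 were higher. After scaling by the median of ratios all levels of this lineage move down by 0.26 (log2) in MI and by 0.41 in MI-E, so directions of genes within those distances of Sham depend on the scaling. S100a8 and S100a9 summed to 11698 CPM in Sham against 13687 in MI and 15899 in MI-E in erythroid-like cells, and their part in the result was not tested.

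Neutrophil-like cells were dividing in 16.7% (Sham), 17.9% (MI) and 19.1% (MI-E), and progenitor-like cells in 76.4% (Sham), 79.97% (MI) and 80.9% (MI-E). The log2 ratio of MI to Sham was 0.11 (wide interval -0.11 to 0.32) in neutrophil-like cells and 0.07 (wide interval -0.02 to 0.16) in progenitor-like cells. Of MI-E to Sham, it was 0.19 (wide interval -0.03 to 0.42) and 0.08 (wide interval -0.01 to 0.17). Each of these intervals includes 0, which at their width does not show that the shares are level. Dividing neutrophil-like cells were precursors: 25.9% (Sham), 26.6% (MI) and 27.6% (MI-E) of the neutrophil precursor-like cells met the rule. Among them cluster 6 (Camp, Fcnb), the granule-forming stage, had 49.1% (Sham), 53.4% (MI) and 59.3% (MI-E), and cluster 3 (Ltf, Ly6g), a later stage, 1.63% (Sham), 2.08% (MI) and 2.97% (MI-E). Cluster 24, led by Stfa1, Stfa2 and Stfa3, had no Sham cell, 516 MI and 175 MI-E cells, of which 55.7% and 52.4% were dividing. Myeloid progenitor-like cells were dividing in 92.4% (Sham), 93.4% (MI) and 94.4% (MI-E), and stem and multipotent progenitor-like cells in 44.3% (Sham), 47.1% (MI) and 48.9% (MI-E).

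No member differed from Sham by 2-fold or more in neutrophil-like or progenitor-like cells. Of the measured genes of neutrophil-like cells 1.23% were 2-fold or more higher and 1.68% lower in MI, and 1.17% higher and 1.15% lower in MI-E. For progenitor-like cells these shares were 0.589% and 1.1% in MI, and 0.551% and 0.64% in MI-E. The S sums of neutrophil-like cells were 1128 CPM in Sham against 1066 in MI and 1202 in MI-E and their G2/M sums 4655 CPM in Sham against 5142 in MI and 5478 in MI-E. In progenitor-like cells the S sums were 3779 CPM in Sham against 3849 in MI and 4196 in MI-E and the G2/M sums 5856 CPM in Sham against 5695 in MI and 5917 in MI-E. Ccnb1 was the member farthest above Sham in both lineages. In neutrophil-like cells it measured 25.5 CPM in Sham against 40.6 in MI and 39.7 in MI-E, higher in MI by 1.60-fold (95% interval 1.39 to 1.84) and in MI-E by 1.56-fold. In progenitor-like cells it measured 60.1 CPM in Sham against 83.4 in MI and 94.5 in MI-E, higher in MI by 1.39-fold and in MI-E by 1.57-fold (95% interval 1.45 to 1.71). It was lowest in Sham in monocyte-like cells too, but not in basophil-like cells, where it was lowest in MI-E. Its partner Ccnb2 measured 58.1 CPM in Sham against 70.4 in MI and 67.1 in MI-E in neutrophil-like and 86.5 CPM in Sham against 90.9 in MI and 89.8 in MI-E in progenitor-like cells.

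Further members of the myeloid lineages showed small differences. Rrm1, the large subunit of ribonucleotide reductase, measured 166 CPM in Sham against 199.9 in MI and 224 in MI-E in progenitor-like cells and 50.4 CPM in Sham against 57.96 in MI and 73.7 in MI-E in neutrophil-like cells, lowest in Sham in both. Dtl and Lig1, the ligase of the lagging strand, were lowest in MI in progenitor-like cells, at 61.02 CPM in Sham against 47.9 in MI and 65.8 in MI-E for Dtl and 149 CPM in Sham against 121 in MI and 138 in MI-E for Lig1. Mcm5 measured 179 CPM in Sham against 165 in MI and 216 in MI-E there, also lowest in MI. Tyms, which makes thymidylate, measured 100.1 CPM in Sham against 92.01 in MI and 78.7 in MI-E in progenitor-like and 32.97 CPM in Sham against 24.5 in MI and 24.3 in MI-E in neutrophil-like cells, highest in Sham. Cdca7 in neutrophil-like cells was at 58.4 CPM in Sham against 43.2 in MI and 39.6 in MI-E and Tacc3 at 37.8 CPM in Sham against 51.5 in MI and 48.9 in MI-E, in opposite orders. Birc5 measured 126 CPM in Sham against 109 in MI and 95.04 in MI-E and Mki67 205 CPM in Sham against 228 in MI and 261 in MI-E in the same cells, so that 2 genes of the mitotic chromosome also went in opposite directions. In mature neutrophil-like cells, Kif23 was at 48.3 CPM in Sham against 9.13 in MI and 23.1 in MI-E, lower in MI by 5.28-fold (95% interval 3.77 to 7.49), 1 of 2 members lower by 2-fold or more among the 9 G2/M members measured there (background 4.45%).

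Over all cells of a library the S sum was 2672 CPM in Sham against 2204 in MI and 2578 in MI-E and the G2/M sum 5297 CPM in Sham against 4923 in MI and 5408 in MI-E. Uhrf1, at 101 CPM in Sham against 61.8 in MI and 74.9 in MI-E, was farthest below Sham in both infarction libraries. Tacc3, at 54.2 CPM in Sham against 63.8 in MI and 72.4 in MI-E, and Plk1, the polo kinase, at 45.6 CPM in Sham against 48.9 in MI and 59.5 in MI-E, were farthest above. Such totals mix the lineages described above.

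Other genes of replication and mitosis, in 11 lists chosen by role and 1 list of other cycle-linked genes, were mostly lower in B-like cells of MI as the members were. Direction is counted over all genes of a list, and 2-fold differences over those measured at 10 CPM or more. Of all measured genes of B-like cells, 4.6% were lower by 2-fold or more. Of 29 kinesin, spindle and cytokinesis genes, all 29 were lower in MI than in Sham, 25 of 27 measured ones by 2-fold or more (median log2 ratio -2.05). Among them Stmn1, which destabilises microtubules, was at 853 CPM in Sham and 98.7 in MI. All 26 kinetochore and checkpoint genes were lower, 18 of 24 by 2-fold or more, as were all 25 polymerase and fork genes (15 of 24), all 13 nucleotide synthesis genes (4 of 12), all 17 G1 and S cyclins and kinases (9 of 15) and all 29 other cycle-linked genes (22 of 29). Condensin and cohesin genes were lower in 12 of 13 (9 of 13), origin licensing and firing genes in 14 of 19 (6 of 14), E2F, RB and MuvB genes in 15 of 18 (5 of 14) and CDK inhibitors in 7 of 8 (2 of 5). The APC/C genes, whose subunits are also made in resting cells, were lower in 12 of 16, 2 by 2-fold or more (median -0.35). Antiproliferative and quiescence genes had a median of 0.03, with 7 higher and 7 lower. Btg1, which slows division, was at 1345 CPM in Sham and 2172 in MI.

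These lists were examined the same way in the other comparisons. In B precursor-like cells, 29 of 29 kinesin and spindle genes and 26 of 26 kinetochore and checkpoint genes were higher in MI-E than in MI, 25 of 28 and 19 of 24 measured ones by 2-fold or more (background 4.01%). The antiproliferative genes were split there, 6 higher and 8 lower. In basophil-like cells all 26 kinetochore and checkpoint genes were lower in MI than in Sham, 14 of 22 measured ones by 2-fold or more (background 4.97%), and Stmn1 was at 809.8 CPM in Sham and 176 in MI. In monocyte-like cells all 29 kinesin and spindle genes were higher in MI-E than in MI, none by 2-fold, with a median of 0.51. In erythroid-like cells 17 of 19 origin licensing and firing genes were higher in MI than in Sham, none by 2-fold. Their median log2 ratio was 0.28, close to the 0.26 of all measured genes of the lineage. Cdt1, the licensing factor that Dtl marks for destruction, was at 102 CPM in Sham and 164 in MI. Kinesin and spindle genes of these cells were divided in MI, 13 higher and 16 lower than in Sham, and in MI-E 19 were higher and 10 lower. Their median log2 ratios were -0.04 in MI and 0.14 in MI-E, below the 0.26 and 0.42 of all measured genes. Kinetochore and checkpoint genes were higher in MI-E than in Sham in 19 of 26, but their median log2 ratio of 0.13 lay below the 0.42 of all measured genes. Of the CDK inhibitors, which hold cells in G1, 2 were higher and 4 lower in MI than in Sham in erythroid-like cells (median -0.06). Their most abundant ones were Cdkn2d, at 116 CPM in Sham and 62.8 in MI, and Cdkn1b, at 105 and 49.1. Directions that lie within the shift between scalings given above depend on the scaling.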

How the data were processed

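For every library the authors deposited a table of UMI counts, genes by barcodes. Libraries used 10x Genomics 3′ reagents and a NovaSeq instrument per the labels, and the submitters' processing notes name Cell Ranger 5.0.1 and mm10. No source used here gives the gene annotation behind the counts. The deposited counts were whole numbers when checked, and totals were 99657072 (Sham), 127330601 (MI) and 109451500 (MI-E) UMIs. Groups came from the treatment labels.

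A barcode was kept from 300 genes and 500 UMIs upward if mitochondrial UMIs were 10% or less (25053 (Sham), 23455 (MI) and 22506 (MI-E)). Doublets, scored against 2 simulated doublets per barcode, were removed (3305 (Sham), 2707 (MI) and 2409 (MI-E)). The remaining cells were clustered together on 2000 variable genes (40 components, k of 20, resolution 1 of the Leiden method; leidenalg 0.10.2, scikit-learn 1.9.0, python-igraph 0.11.9, scipy 1.17.1 in Python 3.11.15), leaving out 378 cell cycle and histone genes, and named "X-like" by markers. Names were rebuilt here, so they may differ from the authors'.

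Cells were thinned to 1000 UMIs for shares. For levels, UMIs were summed per library and lineage and given as CPM of the lineage total, and a gene was measured at a mean of 10 CPM or more over the 3 libraries. With 1 library a group no test was made, and a difference of 2-fold or more served as the call. Coverage of the intervals of level ratios was tested on simulated data, and that of the wide intervals of share ratios was not. The text names, per lineage and comparison, the 2 most abundant S and G2/M members by mean CPM and the 2 whose ratio interval lay farthest above and below 1, and 2 genes per wider list. Other genes (among them Mki67 and Cdk1 in B precursor-like cells, Rfc2, Smc4 and Cenpa in B-like cells, Kif23, Ccnb1 and Cenpf in basophil-like cells, Ccnb2) were chosen after their values were seen. The members and lists were chosen with earlier results of these data known. Alternatives covered the thinning depth, the number of members required, doublets, filters, clustering, scaling and the CPM minimum. Promoters came from RefSeq (GRCm38.p6) and gene positions from GENCODE M21 by gene identifier. Their windows read in the sense of the gene, as checked against GENCODE transcripts.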

Additional observations from a re-analysis of the deposited data

Results flagged for a closer look

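With the settings of the report, some lineages lay above Sham and others below it. In MI the log2 ratio of the dividing share to Sham was 0.22 in erythroid-like cells, -0.84 in B-like cells and -0.74 in basophil-like cells, each with an interval of counting error that lies on 1 side of 0. In MI-E the ratios were 0.21 in erythroid-like cells, 0.45 in monocyte-like cells, -0.58 in B-like cells and -0.85 in basophil-like cells. Each was drawn out because 1 lineage stood above Sham and another below it under the same comparison. The positive ratios depend on the settings: without the haemoglobin-led clusters the erythroid ratios turned to -0.0508 in MI and -0.0294 in MI-E, and the monocyte ratio in MI-E turned to -1.27 and -1.49 at a lower cluster resolution and with 4000 variable genes. The difference between lineages was not tested, since each group has 1 library, and both comparisons share the Sham library.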

How the results depend on the processing

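Values here are log2 ratios of the dividing share. There were 24 such ratios, each recomputed under 14 or 15 alternatives. Of the recomputed values, 288 stayed within the wide interval of the ratio reported, 42 moved further and 12 changed sign where that interval excluded 0. Ratios whose interval includes 0 changed sign more often: that of MI to Sham in monocyte-like cells kept its sign under 5 of 14 alternatives. The B and basophil ratios to Sham kept their sign under every alternative run. Except where a sentence gives a reason by construction, the cause was not tested.

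With thinning to 500 UMIs the ratios of all cells were -0.22 (MI to Sham), -0.0202 (MI-E to Sham, sign turned) and 0.20 (MI-E to MI), those of B-like cells -2.09 and -1.78 to Sham, of monocyte-like cells -0.16 (MI to Sham) and 0.67 (MI-E to MI), of neutrophil-like cells 0.45 (MI-E to Sham), of basophil-like cells -1.52 (MI to Sham), of progenitor-like cells -0.0276 (MI to Sham) and 0.18 (MI-E to MI), and of monocyte-like and progenitor-like cells together -0.0621 and 0.49. Thinned to 2000 UMIs, all cells gave -0.31 (MI) and -0.14 (MI-E, sign turned) to Sham. Without thinning, MI-E to MI was 0.0224 in all cells, 0.19 in monocyte-like cells and 0.14 in monocyte-like and progenitor-like cells together, MI-E to Sham was 0.27 in monocyte-like cells and 0.22 in the combined class, and basophil-like cells gave -0.15 and -0.10 to Sham.

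Requiring 2 members gave -0.14 (MI) and -0.00352 (MI-E, sign turned) to Sham in all cells, -0.26 and -0.21 in B-like cells and -0.24 and -0.18 in basophil-like cells. Requiring 5 gave -2.28 and -1.68 to Sham and 0.60 for MI-E to MI in B-like cells, and -1.45 and -1.50 in basophil-like cells. At least 2 G2/M members, an alternative chosen after seeing the data, gave -0.92 in B-like and 0.19 in progenitor-like cells for MI-E to Sham.

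When cells needed 800 genes and 1500 UMIs, all cells gave -0.19 and -0.0474 (sign turned) to Sham, B-like cells -1.19 and -0.89, and erythroid-like cells -0.0590 and -0.0756 (both turned). Without the haemoglobin-led clusters, chosen after seeing the data, erythroid-like cells gave -0.0508 and -0.0294 (both turned). With cell cycle genes allowed in clustering, monocyte-like cells gave -0.28 (MI) and 0.22 (MI-E) to Sham. At the lower resolution they gave -1.84 and -1.27 (sign turned), progenitor-like cells -0.0130 for MI-E, and both together -0.75 and -0.48 (turned). With 4000 variable genes monocyte-like cells gave -1.90 and -1.49 (turned), and both together -0.48 and -0.27 (turned). In these clusterings the dividing cells were in an unnamed cluster and so in neither class.

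Summed levels of B-like and basophil-like cells kept their sign against Sham under all 11 alternatives run for them. Those of erythroid-like S members (MI-E to Sham) turned to -0.01 with another scaling, and those of monocyte-like cells (MI-E to Sham) to -1.68 for S and -1.20 for G2/M under the clusterings above. Other scalings moved the levels of a lineage by up to 0.42 (log2), in erythroid-like cells. Depth limits B-like cells most, of which 1131 (Sham), 1563 (MI) and 2027 (MI-E) were under 1000 UMIs. No paired analysis was possible because each group has 1 library.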
